A study of Mus musculus with 6 samples.

Results

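The dual-specificity MAP kinase phosphatases were followed in bulk RNA-seq of mouse corneal epithelium. The 10 genes were chosen by symbol, namely Dusp1, Dusp2, Dusp4, Dusp5, Dusp6, Dusp7, Dusp8, Dusp10, Dusp14 and Dusp16, and all 10 are among the 17784 genes listed. Epithelial sheets had been separated with EDTA from the corneas of Ptch1 f/f mice (3 control samples) and of Prrx1-CreERT;Ptch1 f/f mice (3 samples, named Ptch1-deleted below), and each sample gave 1 library. Both groups carried the floxed Ptch1 alleles and both received 3 doses of tamoxifen. The stated genotypes differed in the recombinase allele, which the paper describes as a knock-in. The labels give 2 months and an age of 10 weeks for all samples. Prrx1-CreERT is an inducible recombinase expressed in keratocytes, the mesenchymal cells under the epithelium. The paper states that it also recombines in corneal endothelial cells and in other mesenchymal cells of the eye. The deletion was thus aimed at neighbours of the cells whose RNA was measured. Mice of both sexes were used in the study, and neither the sex nor the number of mice behind each sample was used here.

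MAP kinases are switched on by phosphorylation of a threonine and a tyrosine in their activation loop, and the dual-specificity phosphatases switch them off by removing both phosphates. Their genes are themselves transcribed in response to MAP kinase activity, which makes them a negative feedback loop, and in epithelia this loop tempers signals from growth factors, injury and stress. Dusp5, Dusp6 and Dusp7 prefer ERK, with Dusp5 in the nucleus and Dusp6 and Dusp7 in the cytoplasm. Dusp8, Dusp10 and Dusp16 prefer the stress kinases JNK and p38. Dusp1, Dusp2 and Dusp4 are nuclear enzymes with a broader choice of substrates, and Dusp14 is a small atypical enzyme without the docking domain of the others.

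The bases just before the start of transcription are shown for 6 of the genes. The 6 were chosen after the values were seen. Dusp5, Dusp8 and Dusp1 held a CArG box or a TGACGTCA element. Dusp10, which rose, held neither, nor did Dusp14, which rose less than 2-fold and is not shown. Dusp6 and Dusp16 are members of the 2 selective classes that did not pass the test. A link between these elements and the changes was not tested. RefSeq promoters (GRCm38.p6) were matched by symbol for 9 of the 10 genes, all but Dusp4, and the 250 bases before each start were searched on both strands for the cyclic AMP response element TGACGTCA, for the AP-1 element TGANTCA and for the CArG box bound by serum response factor. Each line below gives the 150 bases nearest to the start, 5′ to 3′ on the strand of the gene, with CArG boxes or TGACGTCA elements in capitals. They lie at chr19:53528995-53529144 (plus strand), chr7:142095285-142095434 (minus strand), chr17:26508473-26508622 (minus strand), chr10:99263081-99263230 (plus strand), chr6:134792629-134792778 (minus strand) and chr1:184034231-184034380 (plus strand), in the order shown.
Dusp5: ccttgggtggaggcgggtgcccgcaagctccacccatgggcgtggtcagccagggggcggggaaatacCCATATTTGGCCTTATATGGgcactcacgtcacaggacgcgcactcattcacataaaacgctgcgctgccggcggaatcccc
Dusp8: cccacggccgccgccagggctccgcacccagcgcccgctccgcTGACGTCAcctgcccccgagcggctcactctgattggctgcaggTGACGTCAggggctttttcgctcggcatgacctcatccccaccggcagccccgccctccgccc
Dusp1: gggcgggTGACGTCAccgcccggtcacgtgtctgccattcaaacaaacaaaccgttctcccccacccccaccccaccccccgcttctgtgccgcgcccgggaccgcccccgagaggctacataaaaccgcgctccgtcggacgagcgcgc
Dusp6: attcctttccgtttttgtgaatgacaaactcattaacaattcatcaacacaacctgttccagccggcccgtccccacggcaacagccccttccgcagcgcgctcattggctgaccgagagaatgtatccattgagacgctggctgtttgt
Dusp16: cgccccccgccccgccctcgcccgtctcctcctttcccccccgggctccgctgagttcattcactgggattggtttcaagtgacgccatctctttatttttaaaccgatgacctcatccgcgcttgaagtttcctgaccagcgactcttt
Dusp10: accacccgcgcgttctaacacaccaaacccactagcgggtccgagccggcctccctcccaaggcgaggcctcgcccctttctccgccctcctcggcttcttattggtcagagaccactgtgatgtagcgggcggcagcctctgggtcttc

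Dusp5 held 2 CArG boxes directly next to each other, CCATATTTGG at 82 to 73 bases before the start and CCTTATATGG at 72 to 63. CArG boxes were found in 1.47% of the 32851 RefSeq promoter windows of the same length. Dusp8 held 2 TGACGTCA elements, at 107 to 100 and at 63 to 56 bases before the start, and Dusp1 held 1 at 143 to 136, where 1.55% of all windows held at least 1. Dusp2, Dusp6, Dusp7, Dusp10, Dusp14 and Dusp16 held neither. TGANTCA was found in none of the 9 windows and in 6.75% of all windows. The half-site TGACG, added to the search later, was found in 17.8% of all windows and, outside the full elements, in Dusp1, Dusp5 and also Dusp16, whose transcript did not pass the test. These matches describe letters in a window and say nothing about which factor was bound in the samples.

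Of the 10 phosphatase genes, 9 had enough reads to be tested, and 4 of them rose at least 2-fold in the Ptch1-deleted samples while none fell. The 4 were Dusp1, Dusp8, Dusp10 and Dusp5. They were called by edgeR's quasi-likelihood test at an adjusted p of at most 0.05, a rule that called 2.34% of all 12999 tested genes as higher and 0.892% as lower. Without the fold minimum 5 rose, Dusp14 being added, and none fell, where 7.61% of tested genes were called higher and 6.41% lower. The median log2 fold change was 0.92 over the 9 tested members and -0.01 over all tested genes. In TPM, a unit that scales transcripts to the library total and corrects for gene length, and so allows levels of different genes to be compared, the groups did not overlap for 6 members, all higher in the Ptch1-deleted samples. By CPM, counts scaled to the library total without regard to length, 19.7% of tested genes had groups that did not overlap and were higher, and 20.3% were lower. The 6 include Dusp4, which was not among the tested genes. Of the tested members, Dusp1, Dusp5, Dusp8, Dusp10 and Dusp14 did not overlap by CPM. The number called rested on single libraries. Without control replicate 2 no member passed, with adjusted p from 0.0647 for Dusp1 to 0.141 for Dusp10 among those called with all samples, and 93 genes in all passed without the fold minimum. Without control replicate 3 only Dusp1 passed with the fold minimum (Dusp5 had a log2 value of 0.997 and Dusp8 an adjusted p of 0.0553), and without Ptch1-deleted replicate 1 only Dusp1 and Dusp8 did. The 5 genes called kept their direction in every fit.

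**Figure D1:**
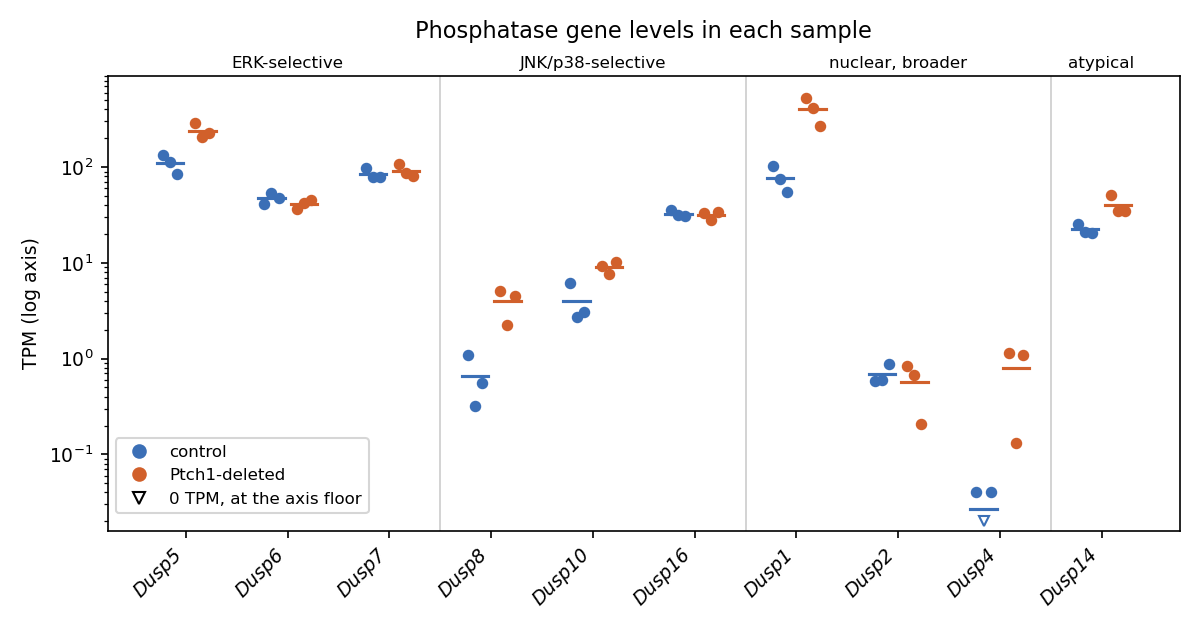
TPM of each of the 10 phosphatase genes in each sample on a log axis, with 3 control (blue) and 3 Ptch1-deleted (orange) samples per gene and a bar at each group mean. The groups are apart for Dusp5, Dusp8, Dusp10, Dusp1, Dusp4 and Dusp14 and overlap for Dusp6, Dusp7, Dusp16 and Dusp2; an open triangle marks a sample listed at 0.

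Libraries were of nearly equal depth, from 20296681 to 20625792 expected counts. Ptch1, which encodes the Hedgehog receptor, was lower in epithelium of the Ptch1-deleted samples, at 5.28 to 7.01 TPM against 7.31 to 10.2 TPM (log2 fold change -0.51, SE 0.13, edgeR adjusted p = 0.0401). The cells in which Ptch1 RNA was lower were not determined. Gli1, a Hedgehog pathway effector, was at or below 0.09 TPM in every sample. The epithelial markers Krt12 and Krt5 were abundant in every sample, Krt12 at 37107 to 49487 TPM. Of 9 epithelial markers 1 passed the test, the basal keratin Krt14, at 534 to 644 TPM in control samples and 2420 to 5798 TPM in Ptch1-deleted samples (log2 2.81, edgeR adjusted p = 0.00769). The keratocyte marker Kera was at or below 0.07 TPM and the leukocyte marker Ptprc at or below 0.2 TPM. Summed TPM of 12 listed stromal markers was 10.6 to 63.4 in control samples, with control replicate 3 highest, and 9.39 to 13.9 in Ptch1-deleted samples. Summed TPM of 14 immune markers was 133 to 173 against 162 to 223, of 4 vascular markers 0.15 to 0.36 against 0.3 to 0.47, and of 5 melanocyte markers 8.19 to 9.53 against 8.87 to 10.1. Summed TPM of 7 conjunctival markers was 1415 to 2366 in control samples and 2209 to 4755 in Ptch1-deleted samples, with Ptch1-deleted replicate 1 highest. Of 6 tested conjunctival markers 5 had a log2 fold change above 0, the median was 1.08, and 1 passed, Muc16, at 0.05 to 0.11 TPM against 0.2 to 0.37 TPM (log2 1.92, edgeR adjusted p = 0.0204). No listed marker was at 0 in all samples. On the first principal component, 58.1% of the variance, Ptch1-deleted replicate 1 stood at 51.7, the other Ptch1-deleted samples at 18.3 and 19.1, and the controls between -33.7 and -26.5. Ptch1-deleted replicate 1 was also the highest sample for 6 of the 10 phosphatase genes. Control replicate 1 was the highest control, or level with it, for 8 of the 10. The part of conjunctival cells and of Ptch1-deleted replicate 1 in the results was not tested. In bulk RNA, a change in the mix of cells and a change of RNA within each cell cannot be told apart.

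Among the ERK-selective enzymes 1 of 3 rose at least 2-fold, where 2.34% of all tested genes did, and the median log2 fold change was 0.16. Dusp5, the nuclear ERK phosphatase, was at 132, 113 and 84.8 TPM in control replicates 1 to 3 and at 287, 205 and 229 TPM in Ptch1-deleted replicates 1 to 3. All 3 Ptch1-deleted samples lay above all controls. The fold change of Dusp5 was 2.25 (log2 1.17, SE 0.21, edgeR adjusted p = 0.0171). The log2 value dipped to 0.98 without Ptch1-deleted replicate 1, which is under the fold minimum.

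Dusp6, the cytoplasmic ERK phosphatase often read as a marker of ERK output, was at 41.6, 53.7 and 47.8 TPM in the controls and at 36.4, 42.6 and 44.9 TPM in the Ptch1-deleted samples. The groups overlapped, with control replicate 2 highest and Ptch1-deleted replicate 1 lowest. Its log2 fold change was -0.17 with a 95% interval from -0.39 to 0.05 (edgeR adjusted p = 0.256), so a 2-fold change in either direction lay outside the interval. Dusp7, its cytoplasmic relative, was at 98.2, 78.8 and 78.1 TPM in the controls and at 109, 86.0 and 81.6 TPM in the Ptch1-deleted samples. These ranges overlapped too, and replicate 1 was the highest of each group. The log2 fold change of Dusp7 was 0.16 with a 95% interval from -0.22 to 0.54 (edgeR adjusted p = 0.535). The ratio of Dusp5 to Dusp6 TPM was 3.18, 2.10 and 1.78 in the controls and 7.91, 4.82 and 5.10 in the Ptch1-deleted samples, with no overlap.

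Among the enzymes selective for stress kinases 2 of 3 rose at least 2-fold, where 2.34% of all tested genes did. The median log2 fold change was 1.22, which is the value of Dusp10. With 3 genes in each class, a difference between the classes was not tested. Dusp8, a phosphatase for JNK and p38, was at 1.10, 0.32 and 0.56 TPM in the controls and at 5.10, 2.25 and 4.51 TPM in the Ptch1-deleted samples. Behind these Dusp8 values stood 14 to 50 expected counts in controls and 102 to 231 in Ptch1-deleted samples. The groups did not overlap, and the lowest Ptch1-deleted sample was above the highest control. The fold change of Dusp8 was 6.17 (log2 2.63, SE 0.47, edgeR adjusted p = 0.0175), and its log2 value was 1.55 at the least in limma on log2(TPM + a pseudocount), a scale that understates changes of low genes.

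Dusp10, which acts on JNK and p38 in both nucleus and cytoplasm, was at 6.15, 2.74 and 3.07 TPM in the controls and at 9.34, 7.61 and 10.3 TPM in the Ptch1-deleted samples. Control replicate 1 lay close to the Ptch1-deleted samples and the groups did not overlap. The fold change of Dusp10 was 2.33 (log2 1.22, SE 0.31, edgeR adjusted p = 0.0433). This call was the least firm of the 4, since it was kept in 1 of 6 fits that left out a sample, the one without control replicate 1 (adjusted p = 0.0163), and was lost in the other 5, with adjusted p up to 0.141.

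Dusp16, a cytoplasmic and nuclear shuttling phosphatase for JNK and p38, was at 35.6, 31.3 and 30.7 TPM in the controls and at 32.8, 28.3 and 33.6 TPM in the Ptch1-deleted samples. The samples of both groups were interleaved. The log2 fold change of Dusp16 was 0.00, with a 95% interval from -0.24 to 0.23 (edgeR adjusted p = 0.986). It was the most abundant of the 3 stress kinase enzymes in every sample. The ratio of Dusp10 to Dusp16 TPM was 0.0875 to 0.173 in controls and 0.269 to 0.307 in Ptch1-deleted samples.

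**Figure D2:**
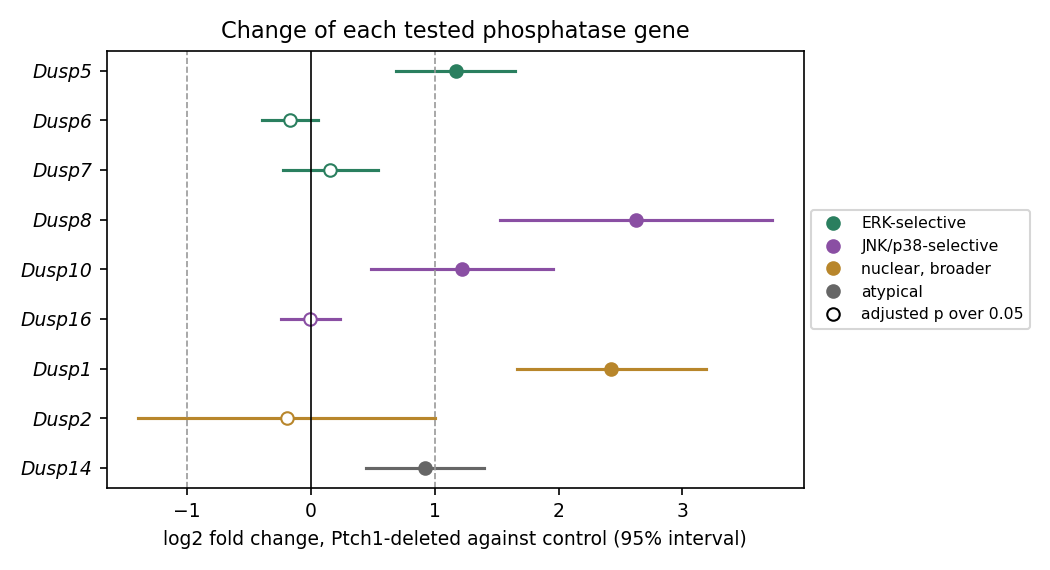
Log2 fold change of the 9 tested phosphatase genes in Ptch1-deleted against control samples (points) with 95% intervals from edgeR (lines). Colours give the enzyme class, and dashed lines mark a 2-fold change. The ERK and stress kinase classes each hold called members and members near 0, with Dusp5 at 1.17, Dusp8 at 2.63 and Dusp10 at 1.22 and with Dusp6, Dusp7 and Dusp16 near 0.

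Of the nuclear enzymes with broader substrates, Dusp1 rose, Dusp2 did not pass the test and Dusp4 had too few reads to be tested. Dusp1, an immediate early gene that inactivates p38, JNK and ERK, was at 103, 74.5 and 55.6 TPM in the controls and at 530, 412 and 270 TPM in the Ptch1-deleted samples. The lowest Ptch1-deleted sample was well above the highest control. The fold change of Dusp1 was 5.38 (log2 2.43, SE 0.33, edgeR adjusted p = 0.00947). It was lost in 1 of 6 fits that left out a sample, and its log2 value in those fits ran from 2.14 to 2.71.

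Dusp2, a nuclear phosphatase best known from activated lymphocytes, was near the limit of detection in both groups, with 9, 9 and 13 expected counts in the controls and 13, 10 and 3 in the Ptch1-deleted samples. Its ranges overlapped, and the log2 fold change was -0.19 with a wide 95% interval from -1.39 to 1.01 (edgeR adjusted p = 0.826). At this depth a 2-fold difference in Dusp2 was not excluded. Cd3e, a T cell marker, was at or below 0.15 TPM in every sample. Dusp4, a nuclear phosphatase induced by ERK in many cells, had 1, 0 and 1 expected counts in the controls and 27, 3 and 24 in the Ptch1-deleted samples. Every Ptch1-deleted sample was above every control, although Ptch1-deleted replicate 2 lay closer to the controls than to its own group. The summed counts were 2 and 54, a ratio of 27.1 at equal depth with a 95% interval from 7.14 to 229, which covers counting error only. The exact two-sided permutation test of Dusp4 TPM gave p = 0.10, the smallest that 3 against 3 samples allow. With the filter on low counts lifted, Dusp4 passed in edgeR (adjusted p = 0.0334) and in DESeq2 (adjusted p = 0.00539). In edgeR fits that left out 1 control Dusp4 had enough reads to be tested and did not pass (adjusted p from 0.0842 to 0.126). It passed without Ptch1-deleted replicate 2 (adjusted p = 0.0151), a fit that drops the lowest sample of that group. In the fits that left out 1 sample, Dusp4 met the count filter only through the Ptch1-deleted samples, where it was high. With the filter lifted, and in DESeq2, 1 count over all samples was enough. None of these passes is taken as support for a difference.

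Dusp14, the atypical member, was at 25.7, 21.1 and 20.6 TPM in the controls and at 50.8, 35.0 and 35.0 TPM in the Ptch1-deleted samples. The groups did not overlap, and Ptch1-deleted replicate 1 was well above the other 2. The fold change of Dusp14 was 1.89 (log2 0.92, SE 0.20, edgeR adjusted p = 0.0292), under the fold minimum. Dusp14 passed in 4 of 6 fits that left out a sample, and missed without control replicate 2 or control replicate 3.

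The order of the phosphatase genes by TPM differed between the groups at the top, in the middle and at the bottom. In control epithelium Dusp5 was highest at 110 ± 23.9 TPM (SD, n = 3), then Dusp7 at 85.0 ± 11.4 and Dusp1 at 77.6 ± 23.7, and these neighbours overlapped. Dusp6 followed at 47.7 ± 6.07, Dusp16 at 32.5 ± 2.66, Dusp14 at 22.4 ± 2.80 and Dusp10 at 3.99 ± 1.88, each below the one before in all samples. Dusp2 at 0.683 ± 0.162 and Dusp8 at 0.66 ± 0.40 overlapped, and Dusp4 was last at 0.027 ± 0.023. In the Ptch1-deleted samples Dusp1 led at 404 ± 130 TPM, with a range that overlapped that of Dusp5 at 240 ± 42.3. Within each sample, however, Dusp1 exceeded Dusp5 by a ratio of 1.84, 2.01 and 1.18, while in the controls it was below Dusp5 with ratios of 0.777, 0.660 and 0.656. Dusp7 followed at 92.1 ± 14.5, then Dusp6 at 41.3 ± 4.41 and Dusp14 at 40.3 ± 9.08, which overlapped each other. Dusp14 was above Dusp16 in all of these samples and below it in all controls. Dusp16 at 31.6 ± 2.87, Dusp10 at 9.09 ± 1.37 and Dusp8 at 3.95 ± 1.5 came next without overlap, and Dusp4 at 0.79 ± 0.572 overlapped Dusp2 at 0.573 ± 0.326.

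Summed over the 10 genes, phosphatase transcripts made 444, 376 and 322 TPM in the controls and 1062, 820 and 710.2 TPM in the Ptch1-deleted samples. Most of the difference in level was Dusp1. Its share of the sum was 23.1%, 19.8% and 17.3% in the controls and 49.9%, 50.3% and 38% in the Ptch1-deleted samples. The 3 ERK-selective genes together made 61.3% to 65.4% of the sum in controls and 40.7% to 50.0% in Ptch1-deleted samples, although their summed TPM was higher in the latter (334 to 432 against 211 to 272). The 3 stress kinase genes made 9.14% to 10.7% of the sum in controls and 4.45% to 6.82% in Ptch1-deleted samples, and their summed TPM overlapped (34.4 to 42.8 against 38.2 to 48.5), most of it being Dusp16. By mean log2 CPM, which weighs each gene equally, the ERK class was above the stress kinase class by 3.01, 3.95 and 3.45 in the controls and by 2.49, 2.82 and 2.32 in the Ptch1-deleted samples. These sums and differences describe the samples and were not tested.

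**Figure D3:**
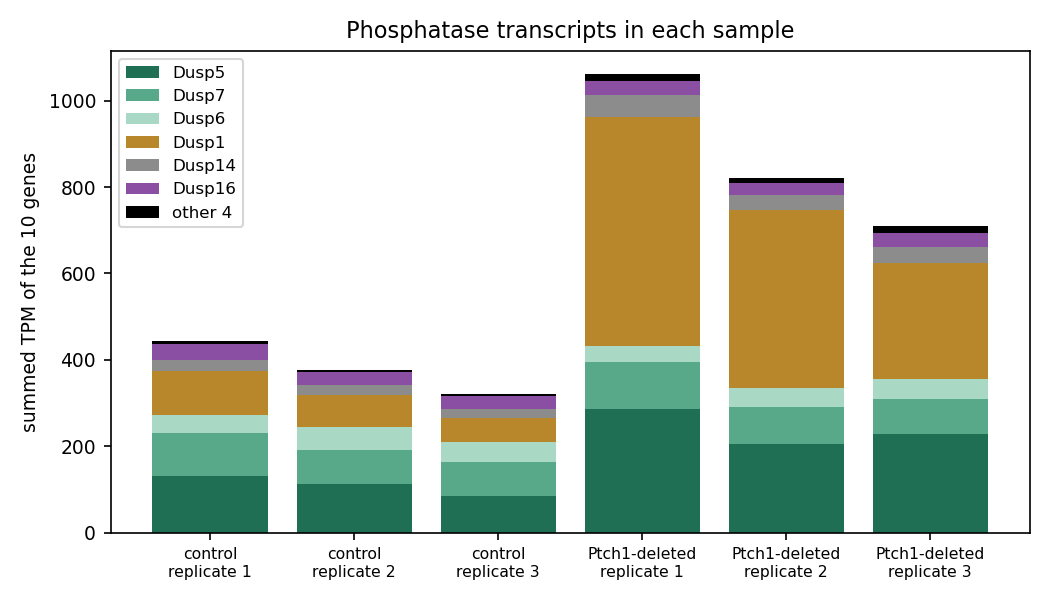
Summed TPM of the 10 phosphatase genes in each sample, stacked by gene; the 4 low genes Dusp8, Dusp10, Dusp2 and Dusp4 are drawn together as the top piece. Sums run from 322 to 444 TPM in the controls and from 710.2 to 1062 TPM in the Ptch1-deleted samples, with the widest gain in the Dusp1 piece.

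The kinase genes were read by the same rules and against the same shares of all tested genes. Mapk3, which encodes an ERK, had a log2 fold change of -0.01 (edgeR adjusted p = 0.929), and the JNK gene Mapk9 and the p38 gene Mapk14 had -0.06 and -0.05 (adjusted p = 0.637 and 0.699). Mapk8, which encodes the other broadly expressed JNK, rose from 9.36 to 10.1 TPM in controls to 12.7 to 14.4 TPM (log2 0.50, adjusted p = 0.0204). Of 12 tested MAP kinase genes 1 rose at least 2-fold, Mapk6, which encodes an atypical kinase, at 51.2 to 54.9 TPM in controls and 99.1 to 131 TPM in Ptch1-deleted samples (log2 1.17, SE 0.12, adjusted p = 0.00527). Without the fold minimum 2 of the 12 rose and 2 fell, where 7.61% and 6.41% of all tested genes did, and the median of the 12 was 0.00. Those that fell, named after their values were seen, were the p38 genes Mapk11 (log2 -0.64, adjusted p = 0.0256) and Mapk12 (log2 -0.51, adjusted p = 0.0375).

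Upstream of the kinases, 1 of 18 tested MAP3 kinase genes passed with the fold minimum, where 2.34% of all tested genes were called higher and 0.892% lower. It was Map3k8, which feeds both ERK and stress kinase cascades (log2 1.08, edgeR adjusted p = 0.0125). Map3k9 had a log2 value of 0.24 (adjusted p = 0.0413). None of 7 MAP2 kinase genes passed with the fold minimum, and 1 rose without it, where 7.61% of all tested genes did. None of 9 genes for Ras proteins, their exchange factors and adaptors, and the Ras inhibitors Nf1 and Rasa1 passed with the fold minimum. Without it 2 of these 9 rose, where 7.61% of all tested genes did. Map2k4, which activates JNK, was the MAP2 kinase that rose (log2 0.33, adjusted p = 0.0477), and Map2k6, which activates p38, had a log2 value of -0.51 (adjusted p = 0.0622). Nras and Shc1 were those among the Ras inputs (log2 0.33 and 0.25, adjusted p = 0.0331 and 0.0375).

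Other phosphatases of the same fold or the same substrates were listed too. Of 14 tested dual-specificity genes outside the 10, 1 rose with the fold minimum, where 2.34% of all tested genes did, and 3 without it, where 7.61% did, none fell, and the median log2 fold change was -0.01. The 1 was Dusp18, at 0.48 to 0.62 TPM in controls and 1.28 to 1.52 TPM in Ptch1-deleted samples (log2 1.42, edgeR adjusted p = 0.0112). Ssh2, a phosphatase of cofilin, was another (log2 0.40, adjusted p = 0.017). Dusp9, a cytoplasmic relative of Dusp6 and Dusp7 that also prefers ERK, was at or below 0.61 TPM in all samples (log2 1.19, adjusted p = 0.0722). Of 9 listed genes for tyrosine and serine/threonine phosphatases of MAP kinases 6 were tested, all of the serine/threonine kind, and none passed by either rule, with Ppm1d (log2 0.58, adjusted p = 0.0561) and Ppp2ca (log2 0.33, adjusted p = 0.0614) the nearest.

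Targets of the kinases were read as 2 lists. Of 18 tested ERK feedback and target genes 3 rose at least 2-fold and 1 fell, and 7 rose and 2 fell without the fold minimum, with a median of 0.24. For both lists the shares of all tested genes were 2.34% higher and 0.892% lower with the fold minimum. Without it they were 7.61% and 6.41%. Spred3, an inhibitor of Ras signalling, had a log2 fold change of 2.22 (edgeR adjusted p = 0.0123) at no more than 0.66 TPM. Egr1 (1.52, adjusted p = 0.0186) and Ier3 (1.46, adjusted p = 0.0186) rose, and Etv1, a transcription factor, fell by 1.69 on the log2 scale (adjusted p = 0.0251). Of the 18, 10 had a log2 fold change above 0. The genes that follow were named after their values were seen. Ccnd1 fell without the fold minimum (log2 -0.56, adjusted p = 0.0267). Spry1, Spry2, Spred1, Spred2, Etv4 and Etv5 lay below 0 and Spry4 above it, and none of these passed. The list of 13 tested JNK and p38 targets holds genes for proteins that these kinases phosphorylate as well as genes they induce. Of the 13, 2 rose at least 2-fold and none fell, and 2 rose and 1 fell without the fold minimum, with a median of 0.09. Those that rose were Jun, at 56.9 to 62.2 TPM in controls and 227 to 421 TPM in Ptch1-deleted samples (log2 2.47, adjusted p = 0.00436), and Zfp36, which destabilises mRNAs of inflammatory genes (log2 1.47, adjusted p = 0.00797).

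Dusp1 is itself an immediate early gene, and 23 other immediate early genes were listed. This list shares genes with the 2 target lists, among them Egr1, Ier3, Jun and Zfp36, so their rises are counted in both places. Of the 23, 13 rose at least 2-fold, where 2.34% of all tested genes did, and none fell. The 13 include 2 low genes. Egr2 was at 0.13 to 0.2 TPM in controls and 0.4 to 1.09 TPM in Ptch1-deleted samples. Egr3 was at 0 to 0.05 TPM and 0.27 to 0.57 TPM. Egr3 met the count filter only through the Ptch1-deleted samples, so its call adds no support for a difference. Without the fold minimum 16 rose, where 7.61% of all tested genes did. By either rule 7 did not pass, and the median log2 fold change of the 23 was 1.47. Summed over the 23, TPM was 2806 to 3192 in controls and 4863 to 5618 in Ptch1-deleted samples. Besides Jun and Zfp36, the smallest p belonged to Nr4a1 (3.21), Socs3 (4.34) and Btg2 (1.59), each with edgeR adjusted p = 0.00263. Whether the rise of Dusp1 and of the other phosphatase genes belongs to that of the immediate early genes was not tested.

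**Figure D4:**
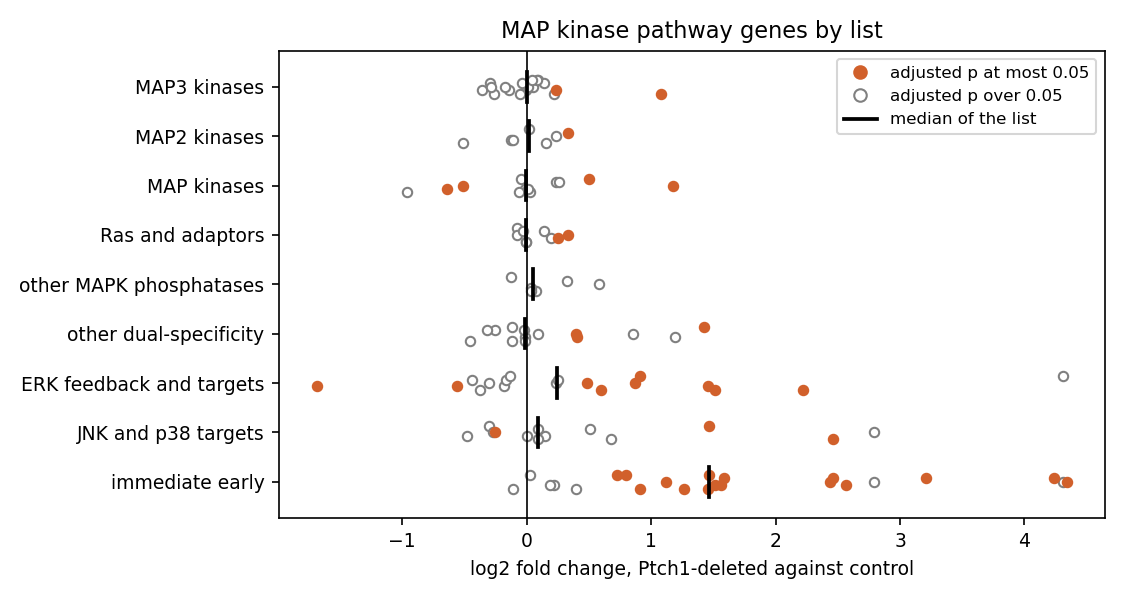
Log2 fold change in Ptch1-deleted against control samples of each tested gene in 9 lists around the MAP kinase pathway. Points are filled where the edgeR adjusted p was at most 0.05, and a bar marks the median of each list. The medians of the kinase lists lie near 0, while that of the immediate early genes is 1.47; genes in more than 1 list are drawn in each.

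The genes whose log2 CPM followed each phosphatase most closely over the 6 samples differed between Dusp1, Dusp5, Dusp6 and Dusp10. For Dusp1 these were Rhog, Cd81 and Spidr, each with Pearson r = 0.998, for Dusp5 Nup54 (0.998), Tyms (0.997) and Csrnp1 (0.997), for Dusp6 Camkk2 (0.992), Ehmt2 (0.990) and Tesc (0.987), and for Dusp10 Haus2, Ifrd1 and Zc3h12b (0.990, 0.990 and 0.989). With 6 points that share 2 groups such values are common, and 374 genes had r over 0.95 with Dusp1 and 54 with Dusp6.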

How the data were processed

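RNA from EDTA-separated corneal epithelium of 3 control and 3 Ptch1-deleted samples was sequenced. Per the labels and the submitters' notes, the tools were Bowtie2 2.2.5 and RSEM 1.2.12 with the build mm9. The authors deposited expected counts per gene, estimated from aligned reads, and TPM. Of all values above 0, 39.4% were not whole, since ambiguous reads are shared out between genes, and this held for some counts of Dusp7, Dusp8 and Dusp10. Deposited FPKM and group averages were not used. The study's methods describe biological replicates, and p-values measure the spread between these samples.

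Counts were rounded and tested in R 4.3.3 with edgeR 4.0.16 (TMM scaling, filterByExpr, quasi-likelihood F test, Benjamini-Hochberg adjustment over all 12999 genes tested). Thresholds were an adjusted p of at most 0.05 with or without a 2-fold minimum. The SE is the size of the log2 fold change over the root of F. Depth gives a floor of 3 counts, or 0.145 to 0.148 CPM. Alternatives used DESeq2 1.42.0, limma 3.58.1 on voom weights and on log2(TPM + 1 or 0.1), other scalings and filters, a replicate block and leaving out each sample.

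The members and gene lists were chosen with earlier results of these data known, so their direction is not independent evidence. Named were all members, Ptch1, fixed kinases and Dusp9, up to 5 genes per list called with the fold minimum (where fewer than 2 were, the 2 smallest p), the 3 genes most like 4 members, and defining markers; the printed sequences were chosen after the values were seen. Promoter sequences come from RefSeq GRCm38.p6, which is not the build of the counts, and no coordinates of the counts were used. Listed genes that are missing from the table were not analysed here, and the result for 1 fixed kinase is not reported here.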

Additional observations from a re-analysis of the deposited data

How the results depend on the processing

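Of the 10 members, 4 were called with the 2-fold minimum and 5 without it. DESeq2, limma-voom, limma on log2(TPM + 1) and log2(TPM + 0.1), RLE and upper-quartile scaling, 2 other count filters and the replicate block left the direction and side of the threshold of every tested member as they were, except that Dusp16, near 0, turned to 0.00082 with at least 10 counts required in every sample. Dusp4 was called in addition by DESeq2 and without a count filter. Leaving out 1 sample gave 0 to 5 members with the fold minimum and 0 to 5 without it. In these fits the log2 fold change changed sign for Dusp16 (-0.061 to 0.087), Dusp7 (-0.015 to 0.30) and Dusp2 (-0.61 to 0.22), none of which passed. Over all genes, 420 were called with the fold minimum, 234 by limma on log2(TPM + 1) and 59 to 430 without 1 sample, and 1822 without the minimum against 93 to 1325 without 1 sample. The cause was not tested. Over all tested genes, samples with the same replicate number did not deviate together (r = 0.11, -0.01 and 0.02), so the number was not taken as a pairing. Among the 10 members, however, replicate 1 was often the highest of its group. A replicate block gave 4 members and 390 genes with the fold minimum. With it the edgeR adjusted p of the 5 called members ran from 0.000323 to 0.0261, and without it from 0.00947 to 0.0433. For Dusp2 depth was the limit, and for Dusp4 the count filter.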
